A study of Mus musculus with 4 samples.

Results

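The sites described here are 870 regions bound by LSD1 at both day 5 and day 2 of muscle cell differentiation that had a high score in the day 5 list and a modest score in the day 2 list. They are called day 5-weighted sites below. A day 5 peak on chromosomes 1 to 19 was taken when its score was at least 100, when it shared at least 1 bp with a day 2 peak, and when every overlapping day 2 peak scored below 200. The score was assigned by the authors' peak caller, MACS. Of the 17446 day 5 peaks, 4615 autosomal peaks reached a score of 100, and 4557 of these overlapped a day 2 peak. The 870 sites make up 19.1% of those 4557 (Wilson 95% interval 18.0 to 20.3) and 4.99% of the day 5 list. The sites were chosen by their scores on both days, so these scores and the ranks made from them are a description and carry no test.

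The cells were C2C12, a mouse myoblast line that stops dividing and fuses into myotubes when serum is withdrawn. They were grown in 10% FBS and 25 mM glucose and then held in 2% horse serum. LSD1 was precipitated at 120 h (day 5, differentiated) and at 48 h (day 2, differentiating) with a polyclonal antibody, and an input was made at each time. All groups shared the same line, medium and crosslinking, and the labels state no genetic change. Each of the 4 groups was 1 library, so no difference between the days can be set against a replicate error. The depth behind the peaks is unknown, since read totals and inputs were not analysed here. Intervals below cover counting error only and treat neighbouring peaks as independent.

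LSD1, the product of Kdm1a, is a flavin-dependent demethylase of histone H3 lysines that works in complexes with the CoREST scaffold and histone deacetylases. Such complexes silence genes by removing an active promoter and enhancer mark, although the enzyme has also been tied to gene activation with nuclear receptors. In muscle cells LSD1 is known for roles at genes of the myogenic programme and of oxidative metabolism. A ChIP-seq peak marks where fragments bound by the antibody pile up, and its standing depends on how often the site is bound, on the fraction of cells that bind it and on the depth of the library. No mm9 gene annotation was used here, so sites are named by position in mm9, with starts counted from 1, and neither their genes nor their sequences are given.

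The score limits cut the lists at similar ranks but not at the same rank. A score of 100 or more was reached by 26.5% of the day 5 list, and a score below 200 was held by 77.0% of the day 2 list. The 2 calls may have scored peaks on different scales, so each peak was placed by its percentile rank within its own list, with 100 as the highest. Against the strongest overlapping day 2 peak, the day 5 rank was higher at 844 of the 870 day 5-weighted sites (97%). Over all 14925 shared autosomal day 5 peaks the background was 23% (3437 peaks). The rule fixes most of this contrast, so nothing is read from it. The label "relatively stronger at day 5" holds for these 844 sites, while the other 26 fell in the corner between the limits and had a day 2 rank at or above the day 5 rank, with day 5 minus day 2 differences down to -2.74 points.

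**Figure D1:**
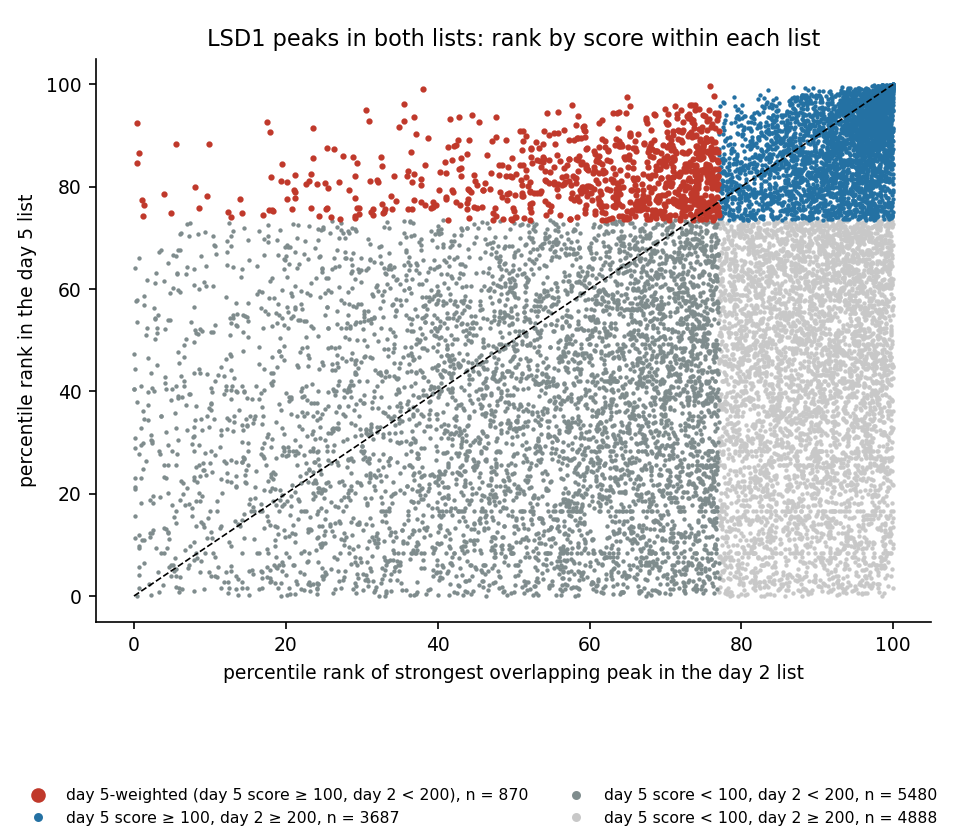
Percentile rank in the day 5 list (vertical axis) against that of the strongest overlapping day 2 peak (horizontal axis), 1 point per shared autosomal day 5 peak, coloured by the score limits; the dashed line marks equal ranks. The 870 day 5-weighted sites fill the upper left block, and 26 of them lie at or under the line near its corner.

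The size of the shift differed widely among the sites. Their median rank was 81.4 at day 5 (quartiles 77.1 to 86.5), against 66.1 at day 2 (53.9 to 73.1). The day 5 minus day 2 difference had a median of 17.5 points (quartiles 9.23 to 29.5) and ran from -2.74 to 92.01 points. Most day 5-weighted sites were therefore of middling day 2 rank, and few moved from one end of the list to the other. A difference of at least 25 points was found at 276 sites (31.7%), with a background of 4.82% over all shared day 5 peaks. A difference of at least 50 points was found at 68 sites (7.82%), with a background of 0.925%. Peaks whose partner scored 200 or more ranked at least 77.0 at day 2, so they could reach neither difference and lower both backgrounds. Among the 5480 shared peaks that scored below 100 at day 5 with every partner below 200, the shares were 8.10% and 1.28%. Ranks were also taken among the shared peaks alone, an alternative chosen after the values were seen. The median difference was then 51.5 points, and all 870 sites ranked higher at day 5. The score limits fix that direction and part of the size among shared peaks, so nothing is read from it. Over all shared peaks the median difference with these ranks was 1.75 points, against -16.6 points with ranks in the whole lists. With ranks among shared peaks, 53.2% of all shared peaks ranked higher at day 5. The day 2 list is the longer, with 44039 peaks against 17446 at day 5. In the whole lists the shared peaks had a median rank of 55.3 at day 5, and their strongest partners 81.5 at day 2.

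**Figure D2:**
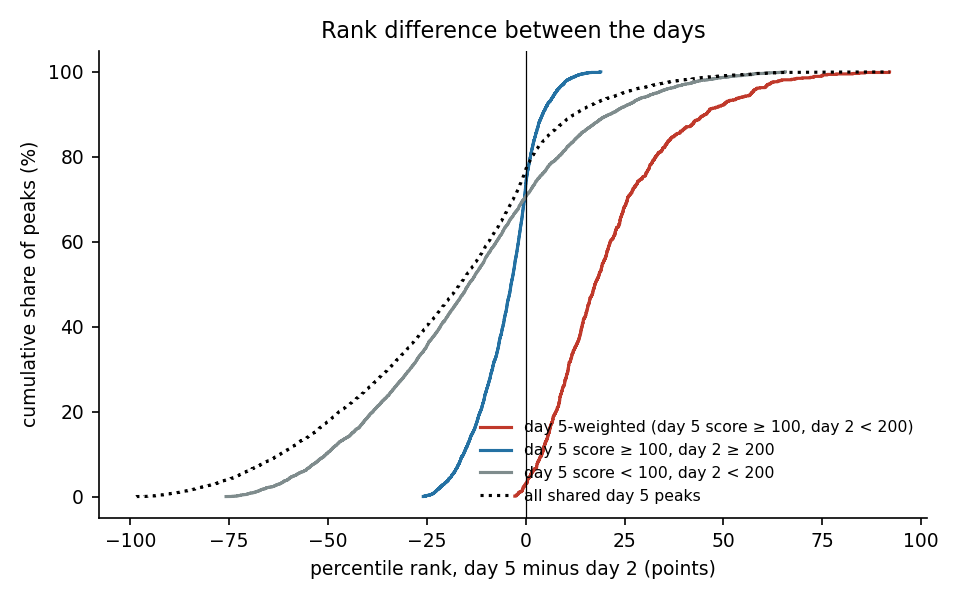
Cumulative share of peaks (vertical axis, %) by day 5 minus day 2 percentile rank (horizontal axis, points) for day 5-weighted sites, for 2 sets that share a score limit with them, and for all shared day 5 peaks. The day 5-weighted curve crosses its middle at 17.5 points, the dotted curve of all shared peaks at -16.6 points.

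The combination of a high day 5 score with a modest day 2 partner became rarer as the day 5 score rose. Among shared day 5 peaks with a score of 100 to 150, the strongest partner scored below 200 at 741 of 2665 (27.8%, 26.1 to 29.5). At scores of 150 to 200 it did so at 112 of 977 (11.5%, 9.62 to 13.6). At scores of 200 or more, 17 of 915 remained (1.86%, 1.16 to 2.96). The day 5-weighted sites thus consist largely of peaks not far above the day 5 limit, with a median day 5 score of 118 (quartiles 108 to 137) beside a median day 2 score of 149 (113 to 179).

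The sites with the largest shift stood at the bottom of the day 2 list and well up in the day 5 list. The largest difference was at chr18:10325128-10325684, where the peak scored 174 at day 5 (place 1330 of 17446) and its partner 50.2 at day 2 (place 43874 of 44039), a difference of 92.01 points. At chr4:47063134-47063453 the scores were 137 at day 5 and 50.3 at day 2, with the ranks 85.8 points apart. At chr6:135202722-135203080 they were 129 at day 5 and 50.2 at day 2, with the ranks 84.3 points apart. At these 3 sites the day 2 peak stood at the lowest scores the list holds, which start at 50, so a slightly stricter day 2 call would have left them as day 5 peaks with no partner.

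Next came chr9:88753778-88754193 (145 at day 5 and 53.0 at day 2) and chr17:47905645-47906237 (146 and 55.8), which differed by 82.7 and 78.6 points. The remaining 5 of the 10 largest lay at chr11:17076594-17076924, chr15:62299622-62300202, chr3:136114376-136114736, chr8:112482499-112482861 and chr14:70402850-70403159. Their day 5 scores lay between 101 and 177 and their day 2 scores between 50.5 and 61.3, with differences of 73.0 to 76.3 points. All 10 lay on different chromosomes, and each was the single day 5 peak in its day 2 peak. Their surroundings differed. The site on chromosome 9 had no other peak of either day within 100 kb, whereas that on chromosome 14 had 4 other day 5 and 13 other day 2 peaks there.

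The day 5-weighted sites of highest day 5 score combined a place near the top of the day 5 list with an unremarkable day 2 peak. The first, chr11:3040380-3048907, scored 480 at day 5 (place 46) and 194 at day 2 (place 10609), and at 8528 bp at day 5 and 10824 bp at day 2 it was by far the broadest. Whether reads can be placed uniquely there was not analysed, so it need not be a site of LSD1; leaving out peaks wider than 5 kb left 869 sites with the same median difference to 3 digits. Chr2:167543125-167543653 was the second, with a score of 357 at day 5 (place 161) and 84.0 at day 2 (place 27265), 61.0 points apart. This site lay among 17 other day 5 and 25 other day 2 peaks within 100 kb, a crowded stretch, and its peak was of nearly equal width on the days, 529 bp at day 5 and 558 bp at day 2.

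Chr5:4248279-4248849 showed a shift of similar size, with 223 at day 5 and 80.6 at day 2 and the ranks 60.5 points apart. At chr5:112234287-112234958 the scores were 220 at day 5 and 123 at day 2, and at chr19:23210068-23210973 they were 262 at day 5 and 146 at day 2. In the last of these the day 5 peak, at 906 bp, was wider than its 777 bp day 2 partner. The other 5 of the 10 highest, chr2:168317003-168317676, chr6:72018360-72018816, chr16:93552943-93553605, chr17:66766166-66766694 and chr8:96655812-96656542, scored 216 to 271 at day 5 and 169 to 196 at day 2. Their ranks differed by 21.4 to 24.5 points, above the 17.5-point median of the day 5-weighted sites, and their day 2 peaks lay a little under the limit.

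Values at the edges of the rule show how fine its limits are. Just inside the day 5 limit, chr15:36785154-36785700 and chr1:140404075-140404374 scored 100.02 and chr1:173048771-173049096 scored 100.07. Just outside it, chr19:47053604-47054013 and chr3:96395105-96395404 scored 99.96 and chr15:59311993-59312460 scored 99.94. The last of these ranked 32.7 points higher at day 5 than at day 2 and was left out, while the site inside on chromosome 1 from 173048771 differed by 3.01 points and was kept.

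At the day 2 limit the partners just inside scored 199.99 (day 5 peak chr1:165334019-165334406), 199.86 (chr11:97682850-97683187) and 199.61 (chr12:112403467-112403757). The partners just outside scored 200 (chr17:14682902-14683495), 200.33 (chr5:137224022-137224474) and 200.35 (chr9:34255329-34255685). The sites with the lowest differences were chr5:37187990-37188315 (-2.74 points), the one on chromosome 11 just named (-2.45) and chr12:104626832-104627318 (-2.43). At these 3 the day 5 peak scored 100.07 to 101.94 and the day 2 partner 195 to 199.86, so they stood slightly lower at day 5.

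Peak width was not part of the rule, but it follows the score within a library and is given as a description. By median width, day 5-weighted sites were narrower in both lists than the 3687 shared day 5 peaks of score 100 or more whose strongest partner scored at least 200, called strong-partner sites below. The median width of the day 5-weighted sites was 447 bp at day 5 (95% interval 437 to 456) and 768 bp at day 2 (752 to 788). That of the strong-partner sites was 534 bp at day 5 (526 to 541) and 1239 bp at day 2 (1219 to 1258). The gap between the 2 sets was thus much larger at day 2 than at day 5. Another set kept the day 2 limit but scored below 100 at day 5; its 5480 low-scoring sites had medians of 291 bp at day 5 (288 to 295) and 686 bp at day 2 (678 to 693).

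The day 5 peak filled more of its day 2 partner at day 5-weighted sites than in either other set. Day 5 width divided by day 2 width had a median of 0.579 (95% interval 0.563 to 0.597) at day 5-weighted sites, 0.456 (0.449 to 0.463) at strong-partner sites and 0.433 (0.428 to 0.439) at low-scoring sites. The first 2 sets are divided by the day 2 score, and with it by day 2 width, so their order follows in part from the rule, also at like day 5 scores. Low-scoring sites are divided from day 5-weighted sites by the day 5 score, and with it by day 5 width. That order follows in part from the rule as well. At scores of 100 to 150 the ratio was 0.566 (0.553 to 0.585) at day 5-weighted and 0.402 (0.391 to 0.414) at strong-partner sites, and at 150 to 200 it was 0.660 (0.607 to 0.710) at day 5-weighted and 0.491 (0.479 to 0.506) at strong-partner sites. At day 5 itself the day 5-weighted sites were somewhat narrower in both bands. Day 5 scores were not matched within a band, and how far they set this gap was not tested. In the lower band the median was 434 bp (424 to 445) at day 5-weighted and 465 bp (457 to 472) at strong-partner sites. In the upper band it was 529 bp (508 to 570) at day 5-weighted and 579 bp (563 to 594) at strong-partner sites, with overlapping intervals.

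**Figure D3:**
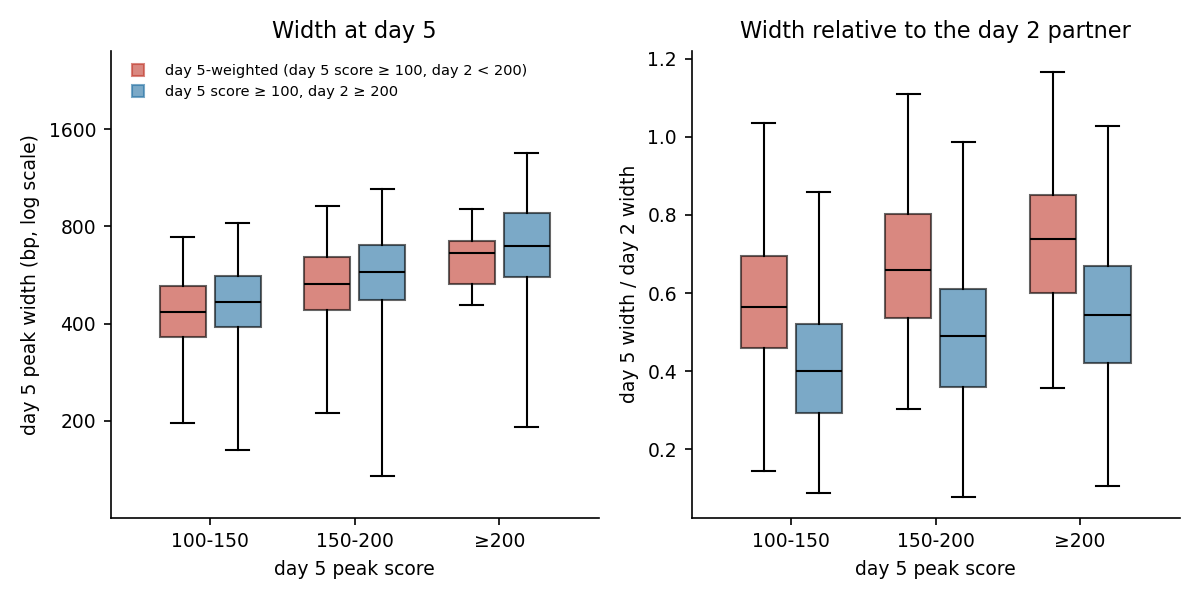
Day 5 peak width (left, bp, log scale) and day 5 width over day 2 width (right) by day 5 score, for day 5-weighted and strong-partner sites; boxes span the quartiles with the median as a line, whiskers reach up to 1.5 times the quartile range and outlying peaks are not drawn. In the 100 to 150 band the medians are 434 bp and a ratio of 0.566 at day 5-weighted sites, and 465 bp and 0.402 at strong-partner sites.

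At 27 day 5-weighted sites (3.10%, 2.14 to 4.48) the day 5 peak was the wider of the pair, as it was at 20 strong-partner sites (0.542%, 0.351 to 0.836) and 51 low-scoring sites (0.931%, 0.709 to 1.22). Over all 14925 shared day 5 peaks it was the wider at 99 (0.663%, 0.545 to 0.807). The largest ratio among day 5-weighted sites was at chr15:77680314-77681260, with 947 bp at day 5 and 510 bp at day 2 and scores of 161 at day 5 and 61.8 at day 2. This site lay in a dense stretch, with 16 other day 5 and 41 other day 2 peaks within 100 kb. It was followed by chr17:47905645-47906237, named above for its rank, with 593 bp at day 5 and 344 bp at day 2, and by chr2:27187019-27187679 with 661 bp at day 5 and 443 bp at day 2. Among the widest day 5-weighted sites after the region on chromosome 11, those at chr8:86125840-86126935 and chr11:120990443-120991608 were almost as wide at day 5 (1096 and 1166 bp) as at day 2 (1103 and 1192 bp). The others, chr1:90173555-90174788 and chr10:29081304-29082332, were 1234 and 1029 bp wide at day 5 within day 2 peaks of 2319 and 1356 bp.

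Day 5-weighted peaks more often reached past the edge of the day 2 peak. At 685 of the 870 sites (78.7%, 75.9 to 81.3) the day 5 peak lay wholly inside its partner, against 92.5% (91.6 to 93.3) of strong-partner sites and 83.6% (82.6 to 84.5) of low-scoring sites. Over all shared day 5 peaks the share was 88.8% (88.2 to 89.3). The 185 day 5-weighted peaks that did not lie inside reached out by a median of 58 bp (quartiles 23 to 109 bp), so the overhang was short beside the width of either peak. It was at most 622 bp, and 5 sites reached out on both sides. The midpoints of the days were a median of 71.5 bp apart (66.5 to 77.5) at day 5-weighted sites, 134 bp (128.5 to 140.5) at strong-partner sites and 84 bp (81 to 87.5) at low-scoring sites. At like partner width the medians at day 5-weighted and strong-partner sites lay closer together, and neither set was lower in all bands. They were 46.5 and 39.5 bp with partners under 500 bp, and 49.25 and 52 bp at 500 to 750 bp. At 750 to 1000 bp they were 84.5 and 66 bp, and at 1000 to 1500 bp 151 and 144.75 bp. At 1500 bp and above they were 267 and 297 bp. Low-scoring sites had larger medians in each band, from 50.5 to 354 bp.

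A narrow day 2 peak leaves less room for a day 5 peak, so the shares were also taken at like partner width. Among partners of 500 to 750 bp, the day 5 peak lay inside at 75.9% of day 5-weighted sites (71.1 to 80.1) and at 80.1% of strong-partner sites (75.01 to 84.3), with overlapping intervals. Low-scoring sites had 84.0% (82.5 to 85.5) in that band, above the day 5-weighted interval. Among partners under 500 bp the day 5-weighted share was 42.1% (30.2 to 55.0), against 52.9% (31.0 to 73.8) of the 17 strong-partner sites and 66.9% (63.7 to 69.9) of low-scoring sites. Among partners of 750 to 1000 bp it lay inside at 81.3% (76.3 to 85.3) of day 5-weighted sites, 90.01% (87.7 to 91.9) of strong-partner sites and 88.5% (86.7 to 90.1) of low-scoring sites, and the first interval was apart from the others. At 1000 to 1500 bp the values were 90.6% (85.0 to 94.2) at day 5-weighted, 93.7% (92.3 to 94.8) at strong-partner and 91.5% (89.2 to 93.3) at low-scoring sites, with overlapping intervals. Day 5-weighted and strong-partner sites thus had separate intervals in the 750 to 1000 bp band alone of the 5 bands, while day 5-weighted and low-scoring sites had separate intervals in all bands under 1000 bp. Day 5 width was not matched. Its median at day 5-weighted and low-scoring sites was 365 and 256 bp with partners under 500 bp. It was 415 and 290 bp at 500 to 750 bp, and 474 and 308 bp at 750 to 1000 bp. A wider day 5 peak has less room in a partner of like width, and how far this sets the shares was not tested.

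**Figure D4:**
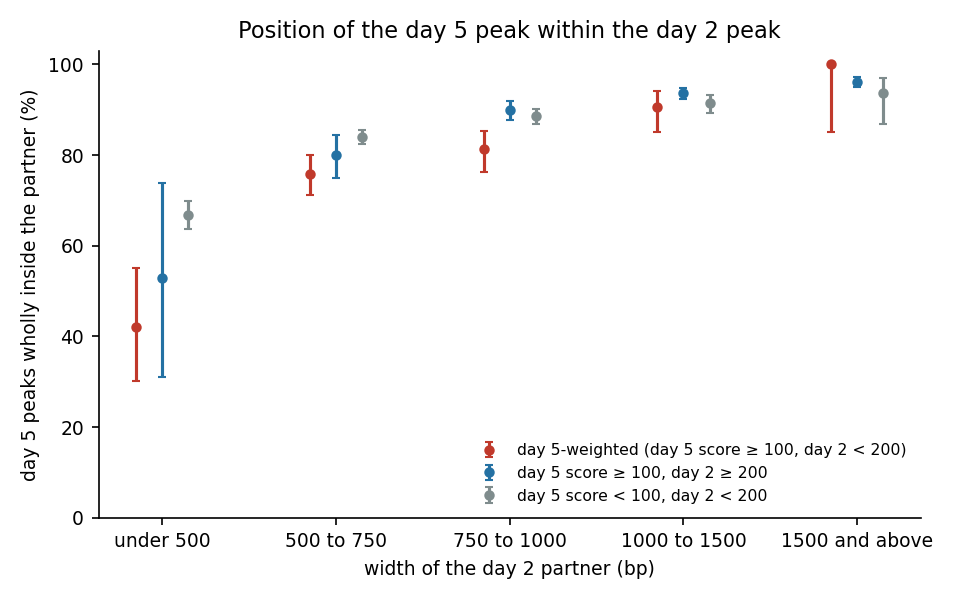
Share of day 5 peaks lying wholly inside the day 2 partner (vertical axis, %) by partner width (horizontal axis, bp) for day 5-weighted, strong-partner and low-scoring sites, with Wilson 95% intervals. The share rises with partner width in each set, and in the 750 to 1000 bp band the day 5-weighted value of 81.3% lies under 90.01% at strong-partner and 88.5% at low-scoring sites.

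Day 5-weighted sites were mostly single. The 870 peaks lay in 868 distinct day 2 partners, and 7 of them touched more than 1 day 2 peak. The partner held another day 5 peak at 44 sites (5.06%, 3.79 to 6.72), against 25.8% (24.4 to 27.2) of strong-partner sites and 6.73% (6.10 to 7.43) of low-scoring sites. Over all shared day 5 peaks the share was 21.4% (20.7 to 22.0). Broad day 2 peaks hold several day 5 peaks more easily. At like partner width, day 5-weighted and strong-partner sites had separate intervals only in the bands of 1000 bp and above. Among partners of 750 to 1000 bp the share was 6.60% (4.26 to 10.1) at day 5-weighted and 5.39% (3.996 to 7.23) at strong-partner sites, and among those of 500 to 750 bp it was 1.45% (0.622 to 3.36) and 2.85% (1.45 to 5.52) in the same sets, with overlapping intervals. Among partners of 1000 to 1500 bp it was 10.1% (6.29 to 15.7) at day 5-weighted and 21.6% (19.6 to 23.8) at strong-partner sites. At 1500 bp and above it was 13.6% (4.75 to 33.3) of 22 day 5-weighted and 50.4% (47.6 to 53.3) of strong-partner sites. Low-scoring sites had 17.0% (14.4 to 19.8) at 1000 to 1500 bp and 34.0% (25.3 to 44.1) at 1500 bp and above. Both intervals overlap those of the day 5-weighted sites in the same bands.

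Strong-partner sites also lay closest to other day 5 peaks. The nearest other day 5 peak was a median of 13.8 kb away (quartiles 3.87 to 44.7 kb) from day 5-weighted sites, 7.76 kb (1.01 to 32.9 kb) from strong-partner sites and 15.3 kb (3.86 to 44.5 kb) from low-scoring sites. The nearest other day 2 peak was 5.14, 5.66 and 5.64 kb away in the same sets. Other day 5 peaks in the same day 2 partner counted for the day 5 distance, and strong-partner sites had these more often. The partner itself was left out of the day 2 distance, so the 2 distances are not compared with each other.

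Neighbouring peaks did not share the shift in rank of the day 5-weighted sites. The neighbours were all other shared day 5 peaks in a different day 2 peak, whatever their score, and included day 5-weighted sites where these lay close by. Within 10 kb of day 5-weighted sites, 477 such neighbours had a median day 5 minus day 2 difference of -15.9 points (95% interval of the median -19.4 to -12.45). Within 10 kb of strong-partner sites it was -16.1 points (-17.6 to -13.8) and of low-scoring sites -15.7 points (-17.6 to -14.3). From 500 to 1000 kb away the values were -16.6, -16.5 and -16.7 points. The neighbours of day 5-weighted sites thus stood close to the median of all shared peaks, -16.6 points.

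A higher frequency of day 5-weighted sites beside each other than beside other peaks was not detectable within the counting error. Of the neighbours within 10 kb that scored at least 100 at day 5, 30 of 140 (21.4%, 15.4 to 28.9) were themselves day 5-weighted around day 5-weighted sites, 16.7% (13.8 to 20.0) around strong-partner sites and 20.2% (17.5 to 23.2) around low-scoring sites. The share over all such peaks was 19.1%. Another day 5-weighted site lay within 100 kb of 178 of them (20.5%, 17.9 to 23.3), of 19.5% (18.3 to 20.8) of strong-partner sites and of 19.1% (18.1 to 20.2) of low-scoring sites.

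Few places held more than a pair. In windows of 100 kb, 782 windows held 1 day 5-weighted site, 41 held 2 and 2 held 3. The fullest were chr3:95700001-95800000, where all 3 shared day 5 peaks of score 100 or more were day 5-weighted, and chr17:45700001-45800000, where 3 of 6 were. The next by the width of their peaks held 2 each, at chr8:82000001-82100000 (2 of 2), chr4:62100001-62200000 (2 of 2) and chr15:101900001-102000000 (2 of 5).

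The sites were spread over all 19 autosomes in step with the shared peaks. The number per chromosome ran from 19 on chromosome 18 to 80 on chromosome 11. As a share of shared day 5 peaks with a score of 100 or more, it was highest on chromosome 16, with 37 of 149 (24.8%, 18.6 to 32.3), and lowest on chromosome 19, with 22 of 152 (14.5%, 9.76 to 20.9). The interval of every one of the 19 chromosomes held the genome share of 19.1%, so no chromosome stood apart beyond counting error. Chromosome 15 had the most sites for its length, 7.88 per 10 Mb, but its share of 79 in 435 (18.2%, 14.8 to 22.1) was near the genome share. Chromosome X, outside the rule, held 1 peak that met the same score limits.

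**Figure D5:**
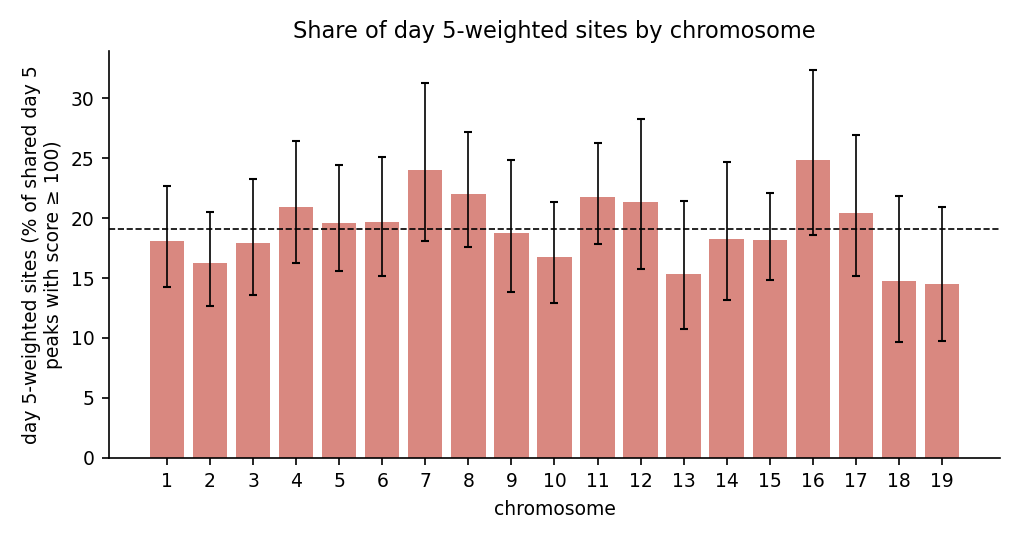
Day 5-weighted sites as a share of shared day 5 peaks with a score of at least 100 (vertical axis, %), by autosome, with Wilson 95% intervals; the dashed line is the share over all 19 autosomes, 19.1%. The bars run from 14.5% on chromosome 19 to 24.8% on chromosome 16, and every interval crosses the line.

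The number of sites depends on where the limits are drawn. A day 5 score of at least 150 left 129 sites, a day 2 score below the median of the day 2 list left 173, and a shared stretch spanning 50% or more of each peak left 576. The sites under the stricter day 2 limit had a median rank difference of 45.6 points, and 63.0% of their day 5 peaks lay wholly inside the partner.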

How the data were processed

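LSD1 precipitates and inputs of C2C12 cells at day 5 and day 2 gave 4 libraries, 1 per group, grouped by sample title. The authors deposited a peak list for either LSD1 library, called with MACS in Galaxy per the file headers. Bowtie2, deepTools and mm9 are named without versions in the submitters' processing notes. Not given in the sources used here are the MACS version, cutoff, duplicate handling and use of the input. The peak score is deposited as the caller gave it, on a scale the file headers do not state. It starts at 50 in both lists and was used within a list, through mid-rank percentiles and the stated limits.

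Overlaps, percentile ranks, widths, distances and windows were computed from the lists with Python 3.11.15, NumPy 2.4.6, pandas 2.3.3 and SciPy 1.17.1, and plotted with Matplotlib 3.10.9. Where a day 5 peak met several day 2 peaks, the strongest was its partner. Intervals at 95% are Wilson's for shares and binomial order statistics for medians. A finer division of the day 5 scores from 100 to 150 was planned, and these are given as 1 band. The membership rule was tested on simulated data. The sites, sets and alternatives were chosen with earlier results of these data known. Named sites were the 10 of largest rank difference, the 10 of highest day 5 score, the 5 widest at day 5, the 5 fullest windows of 100 kb, 3 on each side of each limit, the 3 lowest in rank difference, the 3 largest in width ratio, and the chromosomes of highest and lowest share. The gene and promoter tables at hand belong to another build, so gene classes, sequences and motifs were not analysed here.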

Additional observations from a re-analysis of the deposited data

How the results depend on the processing

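Of 66 values of 8 results under 9 alternatives, 34 stayed within the interval of the value reported (the number of sites within 1.5 times), 32 moved and 0 reversed. In the order number of sites, share higher in rank at day 5, median rank difference, median day 5 width, width ratio, share wholly inside the partner, share on chromosome 16 and share with another such site within 100 kb, a day 5 score of at least 150 gave 129, 100%, 23.9 points, 547 bp, 0.682, 74.4%, 7.46% and 3.10%. A day 2 score below the list median gave 173, 100%, 45.6 points, 429 bp, 0.679, 63.0%, 4.70% and 3.47%. Limits at percentile rank 75 in both lists moved the share higher in rank to 100%, the difference to 20.6 points, the share inside to 75.9% and the share with a near site to 16.3%. Overlap of at least 50% of both peaks gave 576 sites, 20.2 points, 479 bp, 0.660, 74.1%, 38.2% and 13.0%. Merging peaks less than 1 kb apart gave 460 bp, 0.558 and 17.7%. Ranks among shared peaks, chosen after seeing the data, gave 100% and 51.5 points. Shares of sites with a near site fall with the number of sites by construction, and a rule on ranks fixes its share at 100%. The day 5 limit of 150 and the day 2 median limit also fix theirs at 100%, as do the score limits for ranks among shared peaks. Overlap of at least 50% of both peaks leaves out day 5 peaks narrower than 50% of the partner, which raises the width ratio by construction. For the remaining moves the cause was not tested. Chromosome 16 had the highest share under the stated rule but not under the limit of 150, the day 2 median or merging, where chromosomes 18, 15 and 7 did. Its share was not set beside the share over all autosomes under each alternative, so its moves are not read as particular to that chromosome. Including chromosome X, requiring overlap of 50% of the day 5 peak, and leaving out peaks wider than 5 kb (chosen after seeing the data) left all 8 results within those bounds. No paired analysis was possible because each group is 1 library, so no replicate could be left out either. Read depth was not analysed here and limits what ranks of separate lists can show.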
